A study of Homo sapiens with 6 samples.

Results

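The 57 genes described here are the Wnt ligands, their receptors and the regulators of the pathway, taken by symbol from a table of 58735 genes. They comprise 19 Wnt ligands, 10 Frizzled receptors, 4 secreted Frizzled-related proteins, 4 Dickkopf proteins, 4 R-spondins and 3 LGR receptors. LRP5, LRP6, ROR1, ROR2, RNF43, ZNRF3, AXIN1, AXIN2, CTNNB1, TCF7, TCF7L1, TCF7L2 and LEF1 complete the set. The rule reads symbols only and uses no level or fold change, although the set was proposed with earlier results of these data known. RNA was sequenced from untreated PANC1, an established human pancreatic ductal carcinoma line, and from PANC1OR, an oxaliplatin-resistant subline of it. Oxaliplatin is a platinum drug that crosslinks DNA, and the subline was obtained by raising its concentration from passage to passage. Both lines were grown in DMEM with 10% serum, and each gave 3 cultures. The PANC1 cultures are labelled untreated, and for PANC1OR the sources used here do not say whether drug was present when RNA was taken. There is 1 parental and 1 resistant line, so the p-values measure the spread between cultures and not between independently derived resistant lines.

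Wnt proteins are secreted, lipid-modified ligands that bind Frizzled receptors. With the co-receptors LRP5 or LRP6 they inhibit the complex, built on AXIN, that marks β-catenin for destruction, and β-catenin then acts with TCF/LEF factors on target genes. Other Wnt proteins, WNT5A and WNT11 among them, are better known for β-catenin-independent routes through the ROR receptors, planar polarity proteins and calcium. In pancreatic cancer the pathway is best known through inactivating mutations of RNF43, a ubiquitin ligase that removes Frizzled receptors from the cell surface.

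Total counts ranged from 10199268 to 26394388 over the 6 libraries. PANC1OR replicate 3 stood apart from the other 2 PANC1OR libraries in a way that followed base composition. Across the 36 members that passed the filter on low counts, its log2 difference from the mean of the other 2 libraries rose with the GC content of the transcript (Pearson's r = 0.83, Spearman's rho = 0.81). These 36 points share the same 3 libraries. All 14 members above 55% GC were higher in replicate 3, with a median of 1.13 on the log2 scale. Of the 10 members below 45% GC, 3 were higher, and the median was -0.12. WNT7B, WNT11, WNT5B, LRP5 and AXIN1 are among the members above 55% GC. Over all tested genes, PANC1 replicate 2 deviated from the other PANC1 libraries in the same direction, but less. Its median log2 deviation was 0.34 above 60% GC and -0.25 below 40% GC, beside 1.32 and -0.95 for PANC1OR replicate 3. Of the 11 duct and epithelial markers, KRT8 (484 and 429 CPM) and KRT18 (338 and 315 CPM) were not called, and CFTR had no reads. KRT19 (326 and 23.3 CPM, log2 fold change -3.81), CDH1 (13.3 and 5.67 CPM, -1.22) and SOX9 (202 and 127 CPM, -0.67) were lower in PANC1OR. Of the 4 mesenchymal markers, CDH2 was lower (46.9 and 0.623 CPM, -6.27), and VIM, FN1 and ZEB1 were not called. All acinar, islet and endothelial markers were under 1 CPM in both lines. Of the fibroblast markers 4 of 7 were under 1 CPM (COL1A2, DCN, LUM and PDGFRA). The summed level was 82.7 to 98.4 CPM in PANC1 and 113 to 293 CPM in PANC1OR. COL1A1, which was not called, made up most of this sum, at 87.3 and 172 CPM, with 291 CPM in PANC1OR replicate 3. The leukocyte list summed to 0.245 to 0.436 CPM in PANC1 and to 2.28 to 4.95 CPM in PANC1OR. CD14 made up most of it, with 12 reads in PANC1 and 139 in PANC1OR, and was called higher (log2 fold change 3.24), while CD3E had no reads. The part of these markers in the results below was not tested. In RNA from whole cultures, fewer cells that express a gene and less of its RNA per cell cannot be told apart.

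**Figure D1:**
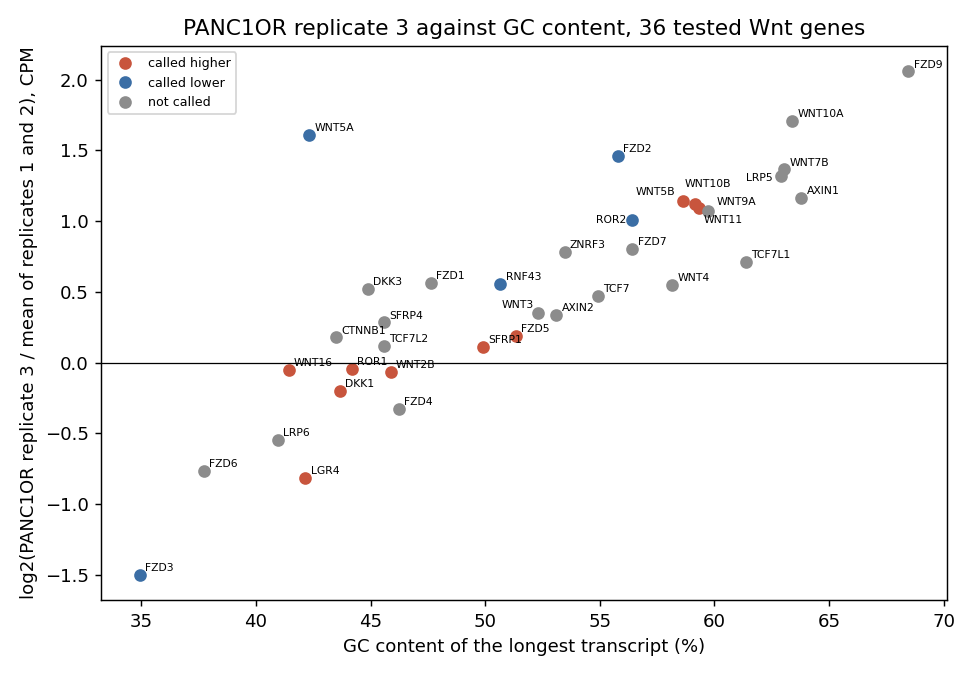
Log2 difference of PANC1OR replicate 3 from the mean of PANC1OR replicates 1 and 2 (vertical axis) against transcript GC content in percent (horizontal axis), 1 point for each of the 36 tested members, red for called higher, blue for called lower and grey for not called. All 14 members above 55% GC lie above 0.

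Of the 57 members, 36 passed the filter and were tested. Between the lines, 10 were higher and 5 were lower in PANC1OR at an adjusted p under 0.05 (edgeR's quasi-likelihood test with Benjamini-Hochberg adjustment over 18751 genes), and 21 were not called. Over all tested genes 10.3% were called higher, 7.5% lower and 17.8% in either direction. A member read almost only in 1 line, such as WNT16 or RNF43, passed the filter through that line and had to differ, so the share of 41.7% called is a description of the tested members. The median log2 fold change was 0.29 over the tested members and 0.04 over all tested genes. The 3 PANC1 values and the 3 PANC1OR values did not overlap for 23 of the 36 members, beside 36.5% of all tested genes. Without PANC1OR replicate 3, 38 members were tested, 12 were higher and 11 were lower, and the 15 called members were all called again in the same direction. Without that library 44.1% of all tested genes were called, 22.1% higher and 22.0% lower. With GC offsets 14 members were higher and 10 lower, beside 39.0% of all tested genes called, 19.9% higher and 19.1% lower. With PANC1 replicate 2 left out as well as PANC1OR replicate 3, 12 of 35 tested members were higher and 13 lower, beside 58.5% of all genes, 29.0% higher and 29.5% lower. With sample weights in limma voom 13 members were higher and 12 lower, beside 63.1%, 31.7% and 31.3% of all genes. Under the cutoffs of the series' design text (absolute log2 fold change over 2, adjusted p under 0.01) 4 members were higher and 5 lower, beside 6.25% of all genes. In each of these fits the share of tested members called was above that of all tested genes. The fits reuse the same libraries and much the same filtered members, so this too is a description.

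**Figure D2:**
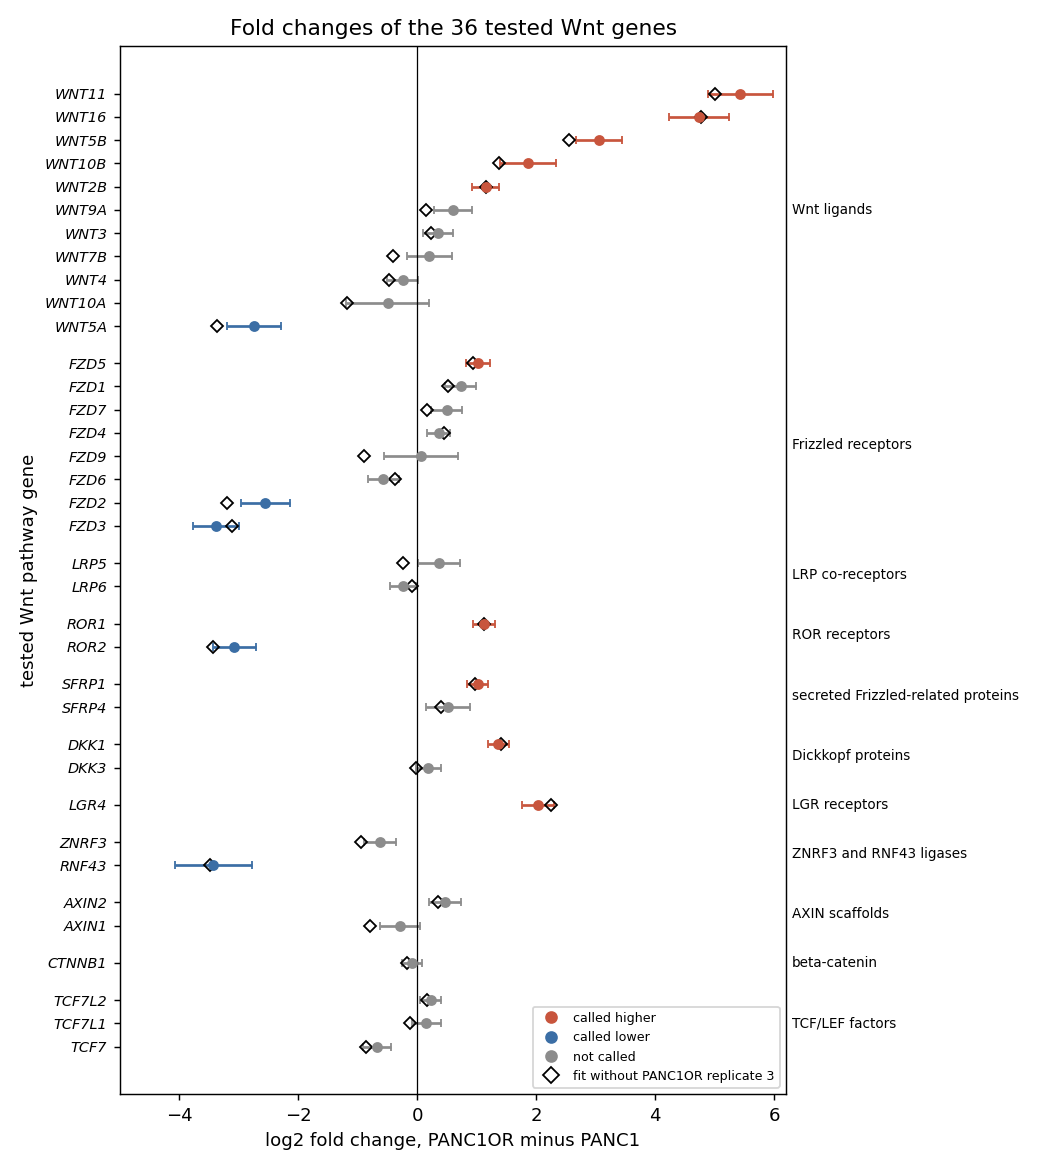
Log2 fold change of PANC1OR over PANC1 with its standard error (horizontal axis) for the 36 tested members, grouped by role, with called and uncalled members in separate colours and diamonds for the fit without PANC1OR replicate 3. WNT11 and WNT16 lie farthest to the right, and RNF43, FZD3 and ROR2 farthest to the left.

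The Wnt ligands changed in both directions. Of 11 tested ligands, 5 were higher (WNT11, WNT16, WNT5B, WNT10B and WNT2B), 1 was lower (WNT5A) and 5 were not called. The other 8 ligands were too low to test. Over all tested genes 10.3% were called higher and 7.5% lower. Without PANC1OR replicate 3, 5 of 12 tested ligands were higher and 3 were lower, beside 22.1% and 22.0% of all tested genes. WNT11 (ENSG00000085741, chr11:76186325-76210736, minus strand, GRCh38), a ligand of convergent extension movements in embryos, was at 0.311, 0.836 and 0.245 CPM (counts scaled to a common, TMM-adjusted library size) in the 3 PANC1 libraries. In the 3 PANC1OR libraries it was at 13.2, 13.8 and 28.8 CPM. Every PANC1OR library was far above every PANC1 library, and the GC-rich replicate 3 was the highest. The mean was 0.464 ± 0.324 CPM in PANC1 and 18.6 ± 8.84 CPM in PANC1OR (SD, n = 3 each). On the log2 scale WNT11 rose by 5.43 ± 0.54 (SE; adjusted p = 0.000352). These levels rest on 17 reads in PANC1 and 924 in PANC1OR, and without PANC1 replicate 2 the log2 value was 6.03.

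WNT16 (ENSG00000002745, chr7:121325367-121341104, plus strand), known for its role in bone and blood stem cell development, was close to absent from PANC1. Its PANC1 values were 0.0623, 0.313 and 0.0612 CPM, from 5 reads in all, and its PANC1OR values were 3.51, 3.50 and 3.39 CPM. The resistant libraries were almost equal to each other, and the GC content of the transcript, 41.4%, is below the median of the tested members, 51.8%. WNT16 rose by 4.74 ± 0.50 on the log2 scale (adjusted p = 0.000474), or by 5.65 without PANC1 replicate 2, which held most of the PANC1 reads.

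WNT5B (ENSG00000111186, chr12:1529891-1647212, plus strand), the paralog of WNT5A, was at 4.86, 4.18 and 3.42 CPM in PANC1 and at 22.9, 26.5 and 54.6 CPM in PANC1OR. The lines did not overlap, and replicate 3 was again the highest. The log2 fold change was 3.06 ± 0.39 (adjusted p = 0.00115). FBXL14, a gene on the opposite strand within the bounds of WNT5B, had 370 and 522 reads in the lines and a log2 fold change of 0.22 (adjusted p = 0.754).

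WNT10B and WNT2B, both ligands of the β-catenin route, rose less. WNT10B was at 0.809, 0.522 and 1.35 CPM in PANC1 and at 2.43, 2.50 and 5.37 CPM in PANC1OR, without overlap (log2 fold change 1.86 ± 0.47, adjusted p = 0.0276). WNT2B was at 4.61, 4.18 and 5.44 CPM in PANC1 and at 11.4, 9.99 and 10.2 CPM in PANC1OR, also without overlap (1.15 ± 0.22, adjusted p = 0.00906). Neither call held in every fit with 1 library left out: without PANC1 replicate 1 the adjusted p was 0.117 for WNT10B and 0.0593 for WNT2B, and without PANC1 replicate 2 it was 0.098 for WNT10B. WNT10B was at 1.13 on the log2 scale with sample weights in limma voom, and at 1.16 when PANC1OR replicate 3 and PANC1 replicate 2 were both omitted. WNT2B overlaps ST7L on the opposite strand, which had 927 and 1397 reads in the lines and a log2 fold change of 0.17.

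WNT5A (ENSG00000114251, chr3:55465715-55490539, minus strand), the best known ligand of the ROR receptors, moved against its paralog. It was at 2.99, 3.66 and 3.67 CPM in PANC1 and at 0.336, 0.312 and 0.991 CPM in PANC1OR. No PANC1OR library reached any PANC1 library, and replicate 3 was the highest of the resistant libraries although the transcript has only 42.3% GC. WNT5A had only 9, 5 and 12 reads in the resistant libraries. Its mean was 3.44 ± 0.389 CPM in PANC1 and 0.546 ± 0.385 CPM in PANC1OR, and it fell by 2.74 ± 0.45 on the log2 scale (adjusted p = 0.00408), or by 3.37 without PANC1OR replicate 3. Per kilobase of exon, WNT5A and WNT5B were at 0.481 and 0.979 RPKM in PANC1, and at 0.0764 and 8.18 RPKM in PANC1OR.

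**Figure D3:**
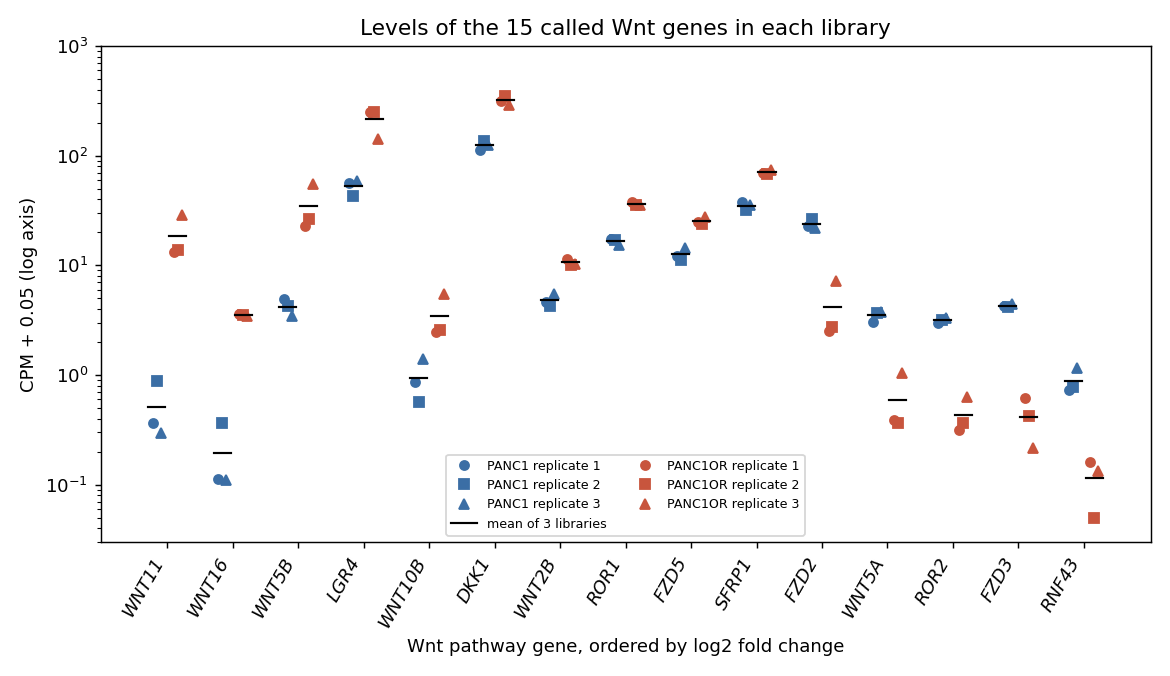
CPM + 0.05 on a log axis (vertical) for the 15 called members, 1 point for each of the 6 libraries (PANC1 blue, PANC1OR red, 1 shape per replicate), with a bar at the mean of each line. The 2 lines do not overlap for any of the 15.

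The most abundant ligand per length of exon, WNT7B, was not called. It was at 43.8, 51.1 and 43.1 CPM in PANC1 and at 37.2, 32.2 and 89.3 CPM in PANC1OR (log2 fold change 0.20 ± 0.38, adjusted p = 0.779). Replicates 1 and 2 of PANC1OR lay below every PANC1 library and replicate 3 above them. Without replicate 3 WNT7B was lower in PANC1OR, with a log2 fold change of -0.41 (adjusted p = 0.0346). The other tested ligands that were not called were WNT9A, WNT3, WNT4 and WNT10A, with log2 fold changes of 0.60, 0.35, -0.25 and -0.50. With GC offsets WNT9A was called higher (adjusted p = 0.0118).

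Summed over all 19 ligands per kilobase of exon (RPKM), the ligand level was 16.7, 19.2 and 16.5 in PANC1 and 26.7, 26.6 and 56.7 in PANC1OR. WNT7B held 51.7% ± 0.458 of that sum in PANC1 and 27.4% ± 3.61 in PANC1OR (SD, n = 3 each). WNT5B held 5.62% ± 1.06 in PANC1 and 22.1% ± 1.69 in PANC1OR. For WNT11 the share was 1.08% ± 0.655 in PANC1 and 21.4% ± 0.507 in PANC1OR. The WNT11 share in PANC1OR replicate 3, 21.4%, lay between those of replicates 1 and 2, 20.9% and 21.9%. WNT9A, the second ligand in PANC1 with 14.6%, was the fourth in PANC1OR with 10.5%.

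**Figure D4:**
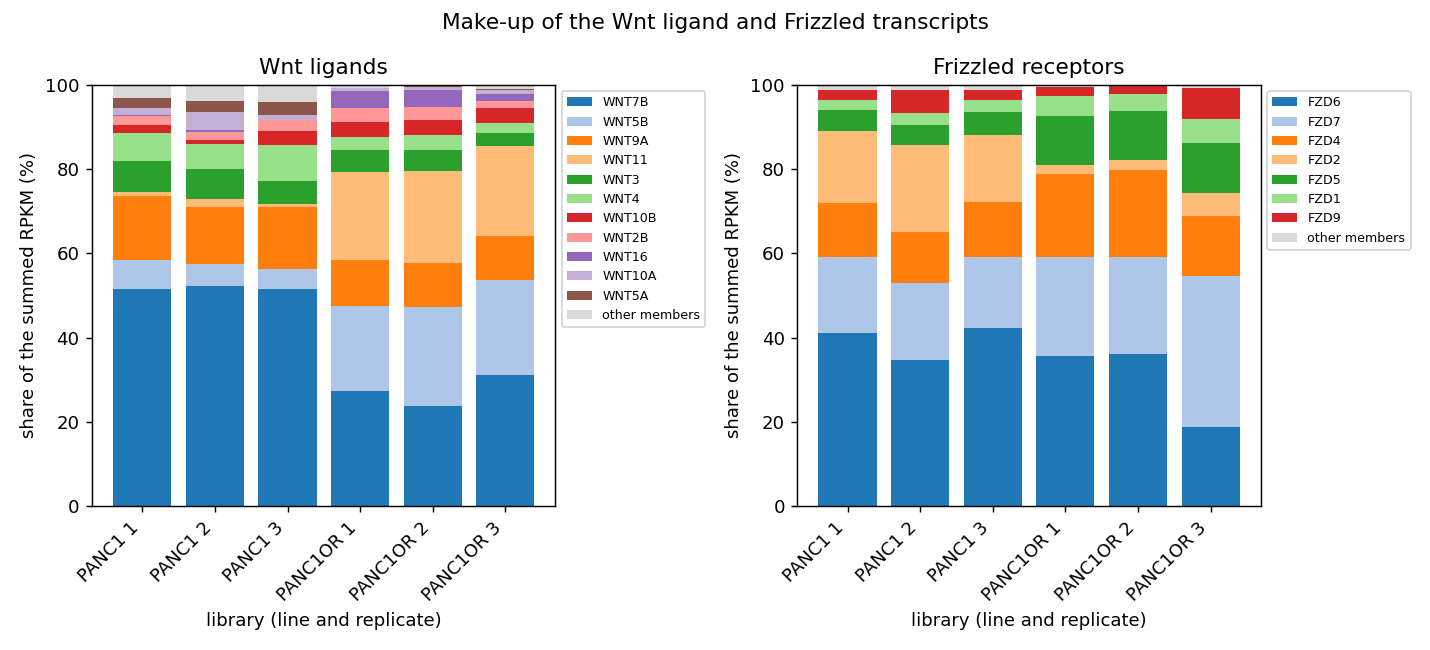
Share in percent of the summed RPKM of the 19 Wnt ligands and of the 10 Frizzled receptors (vertical axis) held by each gene, 1 stacked bar for each library. WNT5B and WNT11 take up a large part of the 3 PANC1OR bars, and FZD2 a small one.

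Among the Frizzled receptors, which bind the ligands at the cell surface, 2 of 8 tested genes fell and 1 rose, and without PANC1OR replicate 3 there were 2 lower and 3 higher. Over all tested genes 17.8% were called in all libraries and 44.1% without replicate 3. FZD2 (ENSG00000180340, chr17:44557484-44561262, plus strand), a receptor through which WNT5A has been reported to act, was at 22.6, 26.1 and 22.0 CPM in PANC1. In PANC1OR it was at 2.47, 2.69 and 7.10 CPM. All PANC1OR values lay well below the PANC1 values, and the highest was again that of replicate 3. The log2 fold change was -2.55 ± 0.42 (adjusted p = 0.00409), and -3.20 without replicate 3.

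FZD3, a receptor known for axon guidance and planar polarity, was at 4.17, 4.07 and 4.40 CPM in PANC1 and at 0.561, 0.375 and 0.165 CPM in PANC1OR. Here replicate 3 was the lowest, and the transcript is the poorest in GC among the Frizzled genes, at 34.9%. The PANC1OR values rest on only 15, 6 and 2 reads. The log2 fold change was -3.38 ± 0.38 (adjusted p = 0.000655). FZD5, a receptor of the β-catenin route that RNF43 controls in pancreatic cancer lines, rose from 12.0, 11.1 and 14.4 CPM to 24.6, 24.0 and 27.7 CPM (1.02 ± 0.21, adjusted p = 0.0111). The lines did not overlap, but without PANC1 replicate 1 the adjusted p for FZD5 was 0.0733.

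FZD6, the Frizzled gene with the highest mean level per length in both lines, was at 58.0, 47.1 and 62.8 CPM in PANC1 and at 43.9, 43.3 and 25.7 CPM in PANC1OR (-0.57 ± 0.26, adjusted p = 0.179). Its transcript has 37.7% GC, and in a fit with GC offsets, which remove each library's trend with GC content, the adjusted p was 0.00121. FZD1, FZD4, FZD7 and FZD9 were not called either. FZD1 was at 6.45 ± 0.583 CPM in PANC1 and 10.7 ± 2.75 CPM in PANC1OR, and its adjusted p was 0.0954 in all 6 libraries and 0.0445 without PANC1OR replicate 3. The log2 fold changes of FZD4, FZD7 and FZD9 were 0.36, 0.49 and 0.06. FZD4 was called higher without PANC1OR replicate 3 (adjusted p = 0.0165) and with GC offsets (0.0334), and FZD7 with GC offsets (0.0119). For FZD9, the most GC-rich of the tested members at 68.5%, the sign turned with the setting, and without PANC1OR replicate 3 the value was -0.89 (adjusted p = 0.0962).

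The Frizzled genes together were at 34.8 ± 1.57 RPKM in PANC1 and 31.1 ± 2.26 RPKM in PANC1OR. FZD2 held 18.0% ± 2.48 of the sum in PANC1 and 3.38% ± 1.90 in PANC1OR. FZD7, whose share in PANC1 did not differ from that of FZD2 beyond their spread, held 17.6% ± 0.794 and 27.4% ± 7.32, and FZD5 held 5.08% ± 0.462 and 11.6% ± 0.0639. FZD6 held 39.4% ± 4.06 and 30.2% ± 9.91. In PANC1OR replicate 3 it held 18.7%, less than the 35.9% of FZD7, so its first place in PANC1OR did not hold in that library.

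LRP5 and LRP6, the co-receptors of the β-catenin route, were not called. LRP5 was at 262, 272 and 237 CPM in PANC1 and at 227, 213 and 551 CPM in PANC1OR. Replicate 3 alone exceeded the PANC1 libraries, and the log2 fold change was 0.36 ± 0.36 in all libraries (adjusted p = 0.566) and -0.23 without replicate 3. LRP6 was at 97.7 ± 13.5 CPM and 82.6 ± 16.9 CPM (-0.24 ± 0.22, adjusted p = 0.521), and with GC offsets the adjusted p for LRP6 was 0.0487.

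The receptor tyrosine kinase family members ROR1 and ROR2, which bind WNT5A, went in opposite directions. ROR1 (ENSG00000185483, chr1:63774017-64181498, plus strand), a surface protein of embryonic and many cancer cells, was at 17.4, 17.0 and 15.3 CPM in PANC1 and at 37.5, 35.2 and 35.3 CPM in PANC1OR. Replicates lay close together within each line, and the log2 fold change was 1.12 ± 0.19 (adjusted p = 0.00452). ROR2 (ENSG00000169071, chr9:91563091-91950228, minus strand) was at 2.93, 3.13 and 3.24 CPM in PANC1 and at 0.262, 0.312 and 0.578 CPM in PANC1OR. All PANC1OR values were far below all PANC1 values, with a log2 fold change of -3.08 ± 0.37 (adjusted p = 0.000855). ROR2 had 130 reads in PANC1 and 19 in PANC1OR. Per kilobase of exon, ROR1 stood above ROR2 in both lines, at 2.47 against 0.527 RPKM in PANC1 and 5.36 against 0.0653 RPKM in PANC1OR. ROR1-AS1, which overlaps ROR1 on the other strand, had 58 reads in PANC1 and 194 in PANC1OR. The sources used here do not give the strand setting of the counting, so reads of the overlapping genes cannot be told apart.

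The secreted antagonists that were well expressed were higher in PANC1OR or not called. SFRP1, which binds Wnt proteins outside the cell, was at 37.5, 32.0 and 35.4 CPM in PANC1 and at 69.7, 67.8 and 74.2 CPM in PANC1OR. The lines were apart and each was narrow, with a log2 fold change of 1.01 ± 0.18 (adjusted p = 0.00538). DKK1 (ENSG00000107984, chr10:52314281-52318042, plus strand), which blocks LRP5 and LRP6 and is itself a known target of β-catenin, was at 113, 134 and 125 CPM in PANC1. In PANC1OR it was at 313, 353 and 290.1 CPM. No values overlapped, and the log2 fold change was 1.36 ± 0.17 (adjusted p = 0.00124). DKK3, a divergent family member, was at 112 ± 13.4 and 127 ± 28.6 CPM (0.19 ± 0.21, adjusted p = 0.627), and SFRP4 at 0.801 ± 0.291 and 1.16 ± 0.142 CPM (0.51 ± 0.37, adjusted p = 0.414). PRKG1-AS1, opposite to DKK1, had 75 reads in PANC1 and 355 in PANC1OR and was also called higher (log2 fold change 1.80, adjusted p = 0.00239).

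RefSeq promoter windows (GRCh38.p14, 250 bases before to 50 bases after a transcription start) were matched to 40 of the 57 members, in 49 windows. They were searched on both strands for the letters CTTTGAA and CTTTGAT, which TCF/LEF factors are known to bind. Other letters that these factors may bind were not searched. CTTTGAA or CTTTGAT was found in 1 of the 49 member windows (2.04%) and in 2409 of all 35116 windows (6.86%). The one member window was that of DKK1, where the match (in capitals) begins at base 156 of the window on the plus strand. The windows of 3 other called members are shown beside it because they belong to the ligand that was almost absent from PANC1, WNT16, and to a ligand and a receptor that both fell, WNT5A and ROR2. They hold neither run of letters. WNT5A has a second window at a downstream start, with 22 CpG dinucleotides and no match, and the window of its upstream start is shown. A match is a description of the letters and not of binding.
DKK1, chr10:52314031-52314330, plus strand: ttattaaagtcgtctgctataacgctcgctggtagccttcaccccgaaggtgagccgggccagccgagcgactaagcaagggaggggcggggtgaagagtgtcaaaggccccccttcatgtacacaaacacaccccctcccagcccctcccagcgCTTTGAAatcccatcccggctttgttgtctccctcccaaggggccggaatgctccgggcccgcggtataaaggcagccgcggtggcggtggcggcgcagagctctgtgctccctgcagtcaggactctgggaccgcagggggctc
WNT16, chr7:121328750-121329049, plus strand: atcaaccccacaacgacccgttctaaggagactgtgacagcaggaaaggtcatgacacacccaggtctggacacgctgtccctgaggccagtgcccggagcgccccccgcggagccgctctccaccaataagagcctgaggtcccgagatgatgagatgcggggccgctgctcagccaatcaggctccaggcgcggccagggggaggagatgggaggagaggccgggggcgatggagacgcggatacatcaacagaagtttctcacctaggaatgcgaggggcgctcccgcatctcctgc
WNT5A, chr3:55487257-55487556, minus strand: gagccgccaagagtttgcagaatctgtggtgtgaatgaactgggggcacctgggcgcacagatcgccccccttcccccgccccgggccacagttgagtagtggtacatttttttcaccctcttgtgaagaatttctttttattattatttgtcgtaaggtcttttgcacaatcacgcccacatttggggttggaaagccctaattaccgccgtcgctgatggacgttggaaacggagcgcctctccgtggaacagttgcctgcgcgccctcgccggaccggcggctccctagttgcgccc
ROR2, chr9:91950179-91950478, minus strand: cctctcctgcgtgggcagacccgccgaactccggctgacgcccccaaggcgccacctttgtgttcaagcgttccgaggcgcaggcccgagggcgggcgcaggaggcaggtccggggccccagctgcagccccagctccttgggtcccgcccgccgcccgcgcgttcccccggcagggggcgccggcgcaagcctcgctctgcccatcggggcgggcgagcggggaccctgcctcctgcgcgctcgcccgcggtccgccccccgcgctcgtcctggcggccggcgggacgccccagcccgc
The DKK1 and WNT16 windows each hold 20 CpG dinucleotides, the WNT5A window shown holds 21 and that of ROR2 holds 42. The median was 14 over all windows and 25 over the 49 member windows.

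The receptors and ligases that set Frizzled levels at the surface changed most in LGR4 and RNF43. LGR4 (ENSG00000205213, chr11:27365961-27472790, minus strand) is a receptor of R-spondins, which restrain RNF43 and ZNRF3. It was at 56.0, 42.5 and 58.7 CPM in PANC1 and at 249, 252 and 143 CPM in PANC1OR. The lines did not overlap, and replicate 3 was the lowest PANC1OR library for this transcript of 42.2% GC. The log2 fold change was 2.03 ± 0.27 (adjusted p = 0.0015). LGR4-AS1, on the opposite strand, had 27 reads in PANC1 and 124 in PANC1OR. LGR5, the stem cell marker of intestinal crypts, had 5 reads in PANC1 and 2 in PANC1OR. LGR6 had 0 and 9 reads, at least 2.3-fold higher in PANC1OR when PANC1 is set to a floor of 3 reads over its 3 libraries.

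RNF43 (ENSG00000108375, chr17:58353676-58417595, minus strand) was low in PANC1, at 0.685, 0.731 and 1.1 CPM, and lower in PANC1OR, at 0.112, 0 and 0.0826 CPM. The values did not overlap, but they rest on 36 reads in PANC1 and 4 in PANC1OR. TSPOAP1-AS1, which overlaps RNF43 on the opposite strand, had 15 reads in PANC1 and 31 in PANC1OR. Without the strand setting, reads of these overlapping genes cannot be told apart. The log2 fold change of RNF43 was -3.43 ± 0.65 (adjusted p = 0.008), and without PANC1 replicate 3 the adjusted p was 0.0551. Without PANC1OR replicate 1, which held 3 of the 4 PANC1OR reads, the log2 value was -4.26. Its paralog ZNRF3 was at 17.4, 15.9 and 16.5 CPM in PANC1 and at 9.12, 8.24 and 14.9 CPM in PANC1OR. All 3 resistant values were below the parental ones, but replicate 3 came close to them. ZNRF3 was not called in all 6 libraries (-0.63 ± 0.27, adjusted p = 0.161), and was called lower without PANC1OR replicate 3 (adjusted p = 0.00118).

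None of the 4 R-spondins passed the filter. RSPO2, which had the most reads of them in PANC1, had 28 reads there and 1 read in PANC1OR. That is 36.6 times as many in PANC1 at equal depth (95% interval 6.05 to 1497, counting error only). A fit with no filter on low counts called RSPO2 lower in PANC1OR (adjusted p = 0.000392). RSPO4 had 22 and 9 reads, a depth-adjusted ratio of 3.2 (1.41 to 7.88, counting error only). RSPO1 and RSPO3 had 3 reads or fewer in either line.

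Inside the cell, none of the members (AXIN1, AXIN2, CTNNB1 and the tested TCF/LEF factors) was called in all 6 libraries. AXIN2, a target gene that reports β-catenin activity in many tissues, was at 1.49, 1.78 and 1.53 CPM in PANC1 and at 2.06, 2.00 and 2.56 CPM in PANC1OR. The 3 resistant values were above the parental ones, but the log2 fold change of 0.46 ± 0.27 did not pass the test (adjusted p = 0.314). CTNNB1, which encodes β-catenin, was at 238, 280 and 257 CPM in PANC1 and at 226, 237 and 262 CPM in PANC1OR. These ranges overlapped, and the log2 fold change was -0.10 ± 0.17 (adjusted p = 0.761). AXIN1, the scaffold of the destruction complex, was at 57.2, 68.0 and 57.7 CPM in PANC1 and at 37.1, 33.7 and 79.4 CPM in PANC1OR. Replicates 1 and 2 of PANC1OR lay below PANC1 and replicate 3 above it. The adjusted p for AXIN1 was 0.633 in all libraries and 0.00152 without replicate 3, where it was called lower.

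Of the TCF/LEF factors, TCF7L2 was the most abundant per length, at 13.3 RPKM in PANC1 and 15.5 RPKM in PANC1OR, and was not called (log2 fold change 0.22 ± 0.17, adjusted p = 0.453). TCF7L1, often a repressor of the targets, had a log2 fold change of 0.15 ± 0.25 (adjusted p = 0.746). TCF7 was at 15.8, 17.3 and 19.3 CPM in PANC1 and at 10.1, 9.30 and 13.5 CPM in PANC1OR. The lines did not overlap, yet TCF7 missed the threshold (-0.68 ± 0.23, adjusted p = 0.0821) and passed it without PANC1OR replicate 3 (adjusted p = 0.00241). LEF1 had 7 reads in PANC1 and 8 in PANC1OR.

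Of the 21 members that were not tested, 14 had fewer than 10 reads over all 6 libraries. These were WNT1, WNT2, WNT3A, WNT7A, WNT8A, WNT9B, DKK2, DKK4, SFRP2, RSPO1, RSPO3, LGR5, LGR6 and FZD10. FZD10 had no reads in any library, which at a floor of 3 reads allows a level of up to 0.0715 CPM in PANC1 and 0.0547 CPM in PANC1OR. WNT6 had 26 and 3 reads, a depth-adjusted ratio of 11.3 (3.47 to 58.5, counting error only). The fit with no filter called WNT6 lower (adjusted p = 0.00534). WNT8B had 21 and 12 reads, FZD8 had 24 and 31, and SFRP5 had 15 and 19.

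Beyond the members, 5 lists of other pathway genes were counted, with 100 genes tested. Of these, 17 were higher and 16 lower, 33% in either direction beside 17.8% of all tested genes, and their median log2 fold change was -0.13. Without PANC1OR replicate 3, 24 were higher and 39 lower, beside 22.1% and 22.0% of all tested genes. In the list of secretion and extracellular regulators 2 of 10 rose and 1 fell, beside 10.3% higher and 7.5% lower of all tested genes. Without PANC1OR replicate 3, 3 of the 10 were higher and 2 lower, beside 22.1% and 22.0%. WLS, the carrier that brings Wnt proteins to the cell surface, rose from 14.9, 19.0 and 18.6 CPM to 55.6, 55.2 and 62.3 CPM (1.72 ± 0.20, adjusted p = 0.000737). DRAXIN, a secreted Wnt antagonist and axon guidance protein, rose by 4.34 ± 0.35 on the log2 scale, and GPC4, a cell surface proteoglycan, fell by 3.11 ± 0.35.

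The destruction complex list had no gene higher and 4 of 24 lower, 16.7% beside 17.8% of all tested genes, with a median of -0.28. These 4 were GSK3B (-0.87 ± 0.22, adjusted p = 0.0278) and CSNK1A1, kinases that phosphorylate β-catenin, with CSNK1G1 and USP7. Each of the 4 calls was lost when some single libraries were left out and when the replicate number was a block, where the adjusted p was 0.0772 for GSK3B, 0.116 for CSNK1A1, 0.14 for CSNK1G1 and 0.129 for USP7. Without PANC1OR replicate 3, 13 of the 24 were lower and none was higher, beside 22.0% lower and 22.1% higher of all tested genes.

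Of 20 tested nuclear cofactors, 3 rose and 2 fell, beside 10.3% higher and 7.5% lower of all tested genes. Without PANC1OR replicate 3, 4 were higher and 7 lower, beside 22.1% and 22.0%. The corepressor genes TLE1 and TLE4, whose products bind TCF/LEF factors, were among those that rose most. TLE1 was at 9.40, 12.2 and 10.8 CPM in PANC1 and at 72.4, 71.8 and 116 CPM in PANC1OR (3.01 ± 0.27, adjusted p = 0.000205). TLE4 was at 0.498, 0.836 and 0.734 CPM in PANC1 and at 11.1, 12.1 and 12.6 CPM in PANC1OR (4.13 ± 0.29, adjusted p = 6.96e-05). The lines were far apart for both. Their family members TLE2, TLE3 and TLE5, named after their values were seen, were not called in all 6 libraries. TLE3 had a log2 fold change of -0.78 ± 0.28 (adjusted p = 0.0986), and was called lower without PANC1OR replicate 3 (-1.17, adjusted p = 8.99e-05). HIPK2, a nuclear kinase, rose by 1.66 ± 0.19, and CTBP2, a corepressor, fell by 0.61 ± 0.16. The CTBP2 call held in 9 of 17 other fits and was lost with the replicate number as a block (adjusted p = 0.136). Of the fits with 1 library left out, only that without PANC1OR replicate 3 kept it.

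Of 27 tested genes of the β-catenin-independent routes, 5 rose and 4 fell, beside 10.3% higher and 7.5% lower of all tested genes. Without PANC1OR replicate 3, 9 were higher and 10 lower, beside 22.1% and 22.0%. CAMK2A and CAMK2D, calcium-dependent kinases, rose by 3.62 ± 0.41 and 1.61 ± 0.24 on the log2 scale. DAAM1, a formin that links Dishevelled to RHOA, rose by 1.79 ± 0.27. Its paralog DAAM2, named after its values were seen, fell by 3.64 ± 0.68, from 42 reads in PANC1 and 4 in PANC1OR. PRICKLE2, a planar polarity protein, fell by 3.96 ± 0.66, or by 5.69 without PANC1OR replicate 1.

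Of 20 tested genes reported elsewhere as β-catenin targets, 7 rose and 5 fell, beside 10.3% higher and 7.5% lower of all tested genes, with a median of 0.43. CCND1, which encodes cyclin D1, rose from 240, 209 and 230 CPM to 465, 452 and 501 CPM (1.06 ± 0.16, adjusted p = 0.003). CLDN1, JAG1, TBX3 and TNFRSF19 rose by 4.19, 1.89, 1.94 and 2.53 on the log2 scale. The 5 that fell, named after their values were seen, were L1CAM (-2.18), EPHB3 (-2.52), ID2 (-1.34), CD44 (-1.05) and SOX9 (-0.67). CD44, a surface glycoprotein, was at 3252 CPM in PANC1 and 1566 CPM in PANC1OR. The SOX9 call was lost in 5 of the 6 fits with 1 library left out and with the replicate block (adjusted p = 0.116). MYC was at 83.2, 124 and 82.0 CPM in PANC1 and at 59.7, 54.1 and 96.0 CPM in PANC1OR, with overlap (-0.47 ± 0.28, adjusted p = 0.323). Without PANC1OR replicate 3 MYC was called lower (-0.77, adjusted p = 0.0117). NOTUM was not called (1.15 ± 0.60, adjusted p = 0.251; 0.0173 with GC offsets), and its highest value, 8.17 CPM, was in PANC1OR replicate 3. NKD1 had 11 and 8 reads, SP5 had 9 and 7, and ASCL2 had none. Without PANC1OR replicate 3, 8 of the 20 were higher and 7 lower, beside 22.1% and 22.0% of all tested genes.

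**Figure D5:**
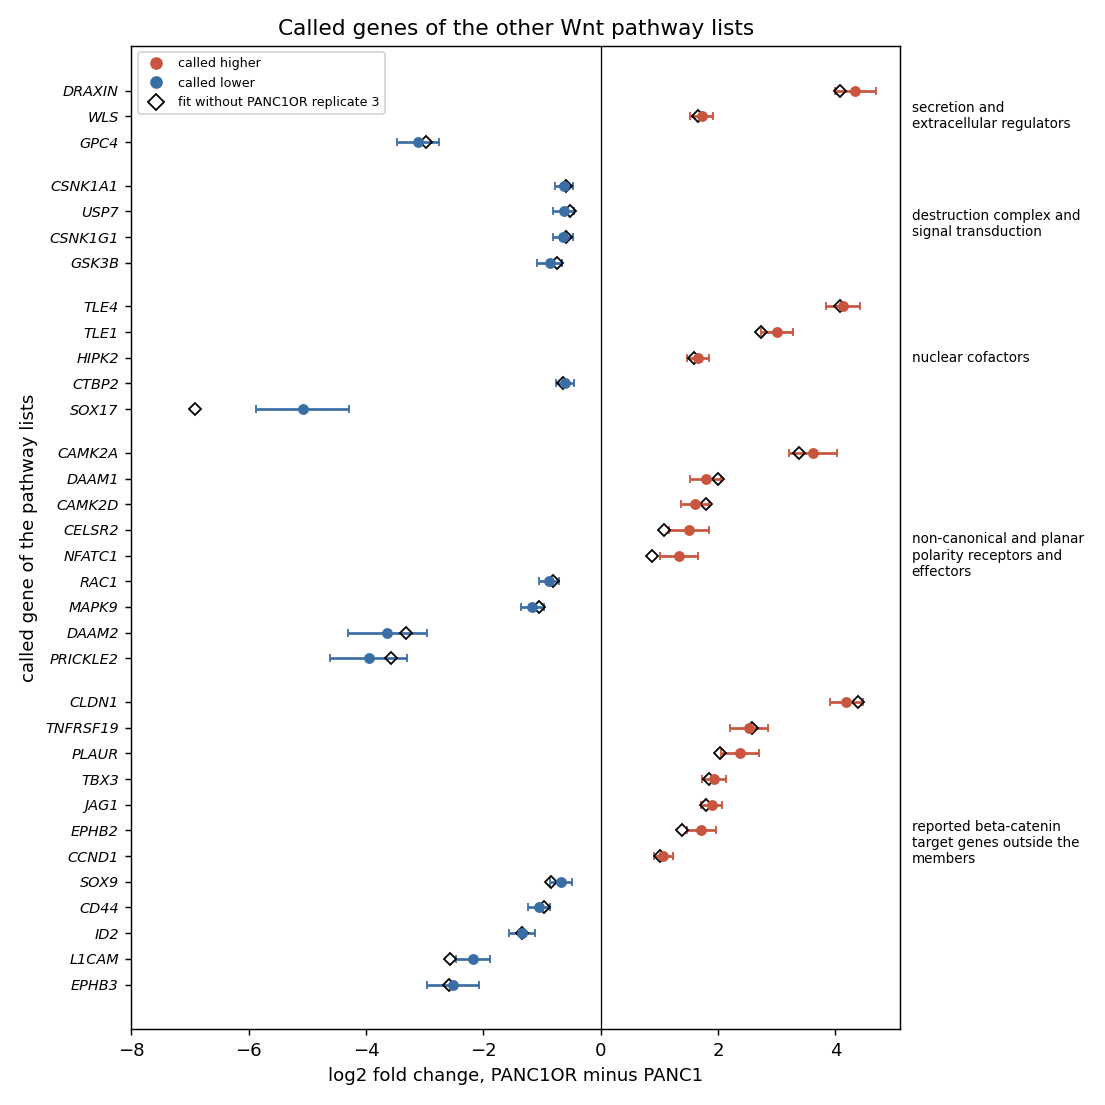
Log2 fold change of PANC1OR over PANC1 with its standard error (horizontal axis) for the called genes of the 5 other pathway lists, with diamonds for the fit without PANC1OR replicate 3. The destruction complex list holds lower genes only, and the other lists hold genes in both directions.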

How the data were processed

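The table deposited by the authors gives raw read counts of each gene, as whole numbers, in 3 PANC1 and 3 PANC1OR libraries. Per the labels' protocols and the series' design text, RNA was extracted with TRIzol and libraries were made with a Kapa mRNA kit. After trimming with Cutadapt, reads were aligned by STAR 2.5 to the GRCh38 genome, and featureCounts (Subread 1.6.2) assigned them to genes. The sources used here do not say how strand and reads that map to several places were handled. The table also had 5 columns without values.

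The counts were tested in edgeR 4.0.16 (R 4.3.3) with filterByExpr, TMM scaling and the quasi-likelihood F test, adjusted by Benjamini-Hochberg over 18751 genes. Standard errors were the absolute log2 fold change divided by the square root of F. CPM were computed on TMM-adjusted totals, and RPKM on merged exons of GENCODE 44. Alternatives used limma 3.58.1, DESeq2 1.42.0, other scalings and filters, the cutoffs of the design text, GC offsets, a replicate block and left-out libraries. The fit was tested on simulated data. Ratios of low counts have exact 95% intervals. Named genes were the called members, members of at least 5 CPM in either line, a preset list of core members, and, per pathway list, up to 4 called genes with preset target genes. FZD9, WNT10A, SFRP4, the low members and overlapping genes were named outside that rule, after their values were seen. Members and lists were chosen with earlier results of these data known.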

Additional observations from a re-analysis of the deposited data

How the results depend on the processing

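Counts of called members and pathway genes depended on how PANC1OR replicate 3 was treated, while 11 of the 15 called members were called in each of 17 other fits. FZD5, WNT2B, WNT10B and RNF43 were the exceptions, each in 1 or 2 fits with a PANC1 library left out, and RNF43 did not pass a filter of 1 CPM in 3 libraries. Under the cutoffs of the design text, an absolute log2 fold change over 2 and an adjusted p under 0.01, 4 members were higher (WNT11, WNT16, WNT5B and LGR4) and 5 lower, with 6.25% of all tested genes called. Lower members numbered 12 with sample weights in limma voom, 10 with offsets for GC content and 9 with these offsets and the replicate block. There were 13 when PANC1OR replicate 3 and PANC1 replicate 2 were both left out. Leaving out 1 library at a time gave 7 to 12 members higher and 4 to 11 lower, the highest counts without PANC1OR replicate 3. Over these 6 fits 9.31% to 44.1% of all tested genes were called, again the most without PANC1OR replicate 3. Pathway list genes called higher (17 in all libraries) numbered 26 with voom weights, 26 with both libraries left out, 27 with GC offsets, and 15 to 24 with 1 library left out. Those called lower (16) numbered 45, 47 and 33 under the same 3 settings, 30 with the block and GC offsets, 10 with the block alone, and 10 to 39 with 1 library left out. The shares of all tested genes called rose too, to 63.1%, 58.5% and 39.0% under those 3 settings, from 17.8%.

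No called gene reversed. Uncalled members that did so without PANC1OR replicate 3 were DKK3, LRP5, TCF7L1, WNT7B and FZD9. Over the fits with 1 library left out the log2 fold change of DKK3 ranged from -0.0195 to 0.301, that of LRP5 from -0.23 to 0.589, that of TCF7L1 from -0.13 to 0.303 and that of WNT7B from -0.41 to 0.45. With voom weights it was -0.14 for LRP5, -0.0579 for TCF7L1 and -0.30 for WNT7B, and with both libraries left out -0.20, -0.0934 and -0.34. FZD9, at 0.06 in all libraries, ranged from -0.89 to 0.506 with 1 library left out, and was -0.00862 with upper-quartile factors, -0.54 with voom weights, -0.49 with both libraries left out, -0.11 with GC offsets, -0.13 with the replicate block and -0.0794 with block and GC offsets. WNT10A ranged from -1.18 to 0.284 with 1 library left out and was above 0 without PANC1 replicate 2 alone. The cause was not tested. Deviations of same-numbered libraries from their line means correlated at 0.46, -0.45 and -0.22. Of all pairs across the lines the highest was 0.51, for PANC1 replicate 2 with PANC1OR replicate 3, both higher in GC-rich genes. Deviations with GC content enter these values, so they cannot decide whether the numbers paired the cultures. With the replicate block the members called stayed at 10 higher and 5 lower. Of the 14 members with under 10 reads in all, FZD10 had no value in any fit, and the others were tested in the fit with no filter, which called none of them.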

Other observations

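Several Wnt genes lie beside each other in the genome, and within such pairs 1 gene held nearly all the reads. WNT9A had 424 reads in PANC1 and 774 in PANC1OR, and its neighbour WNT3A on chromosome 1 had 2 and 1. WNT10B had 40 and 170 reads on chromosome 12, and WNT1 had 0 and 2. WNT3 had 259 and 432 reads on chromosome 17, and WNT9B had 0 and 2. The WNT6 and WNT10A pair on chromosome 2 differed, with 26 and 3 reads for WNT6 and 45 and 41 for WNT10A.

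The nearest tested protein-coding genes on each side of the 15 called members numbered 30, at gaps of up to 1977 kb. Of these, 7 were called (23.3%, beside 17.8% of all tested genes, coding or not), 6 of them in the direction of the member. Overlapping antisense genes such as PRKG1-AS1 and LGR4-AS1 were not counted among the 30. WNT16 lies between CPED1, 27.9 kb away, and FAM3C, 7.77 kb away. CPED1 had a log2 fold change of 5.03 (edgeR's quasi-likelihood test, adjusted p = 0.000241) and FAM3C one of 0.96 (adjusted p = 0.0176). FZD5 lies 0.759 kb from CCNYL1, which had a log2 fold change of 2.88 (adjusted p = 0.000151), and its other neighbour, PLEKHM3, had one of 0.81 (adjusted p = 0.0333). These neighbours were named after their values were seen, and whether their changes are linked to those of WNT16 and FZD5 was not tested.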
